A study of Mus musculus with 24 samples.

Results

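RNA was sequenced from haematopoietic stem cells (HSC) and from a progenitor population labelled MPP4 of mice labelled knockout (KO), and 6 of the 24 libraries of the series are described here. They were chosen by their labels alone: 3 libraries labelled KO and MPP4 against 3 libraries labelled KO and HSC, across all genes. The labels give no strain, age or sex, do not name the gene or allele behind KO, and do not give the marker antibodies of the sort. All animals, wild type (WT) included, had received tamoxifen, and the cells came from bone marrow per the protocol, although the tissue field reads blood. The other groups were HSC and MPP4 of WT animals and the populations labelled MPP1 and MPP2 of both genotypes, with 3 libraries in each of the 8 groups. Nothing in the labels says that replicate libraries are separate animals. The p-values therefore reflect how far these libraries lie from each other, and that variation may be technical. The 5 most abundant immunoglobulin heavy chain V segments, whose choice differs from one B cell clone to the next, were the same in all 3 KO MPP4-labelled libraries, and 1 of them was among the 5 of the WT MPP4-labelled libraries.

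HSC renew themselves and give rise to all blood lineages, and multipotent progenitors (MPP) are their immediate descendants, with less self-renewal and a bias towards some lineages. MPP4, also called lymphoid-primed progenitors, are known by the receptor Flt3 and by early lymphoid genes, whereas MPP2 are known by Slamf1 together with Cd48 and by a bias towards megakaryocytes and red cells. The series concerns P-bodies, cytoplasmic granules in which messenger RNA is held away from ribosomes. Ddx6, an RNA helicase needed for their assembly, was checked for that reason, although the labels do not name it.

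The labels were checked against defining genes before any comparison, with levels in CPM, the counts of a gene relative to the scaled library total. Flt3 stood at 75.8 to 91.9 CPM in the KO MPP4-labelled libraries and at 28.7 to 33.8 CPM in KO HSC, but at 481 to 625 CPM in the KO libraries labelled MPP2 and at 548 to 603 CPM in those labelled MPP1. Dntt, the polymerase that adds bases at antigen receptor joints and an early lymphoid gene, stood at 39.6 to 52.9 CPM in KO MPP4-labelled libraries and at 408 to 425 CPM in KO MPP2-labelled ones. Satb1, a chromatin organiser of lymphoid progenitors, showed the same order, with 87.2 to 119.9 against 421 to 458 CPM. Slamf1, a sort marker shared by HSC and MPP2, was at 69.8 to 110.1 CPM in KO MPP4-labelled libraries and at most at 10.9 CPM in KO MPP2-labelled ones. WT libraries showed the same pattern for these genes, with Flt3 at 54.5 to 81.0 CPM under the label MPP4 and at 1080.1 to 1182 CPM under the label MPP2. Il7r and Notch1 were likewise lower under MPP4 than under MPP2 in both genotypes. Ighm went the other way in WT, at 1188 to 1453 CPM under MPP4 and 862 to 996 CPM under MPP2. So did Ccr9 in WT, at 12.3 to 23.3 against 5.47 to 6.86 CPM. In KO, Ighm was lower under MPP4 (1465 to 1636 against 8155 to 8630 CPM) and Ccr9 overlapped. Flt3, Dntt, Satb1, Il7r and Notch1 therefore go against the label where it stands for lymphoid-primed, Flt3-rich cells, while Ighm and Ccr9 in WT do not. The libraries are called MPP4-labelled throughout, with no other cell type name. Ddx6 stood at 67.6, 93.6 and 67.0 CPM in KO HSC and at 62.4, 66.2 and 64.6 CPM in KO MPP4-labelled libraries (log2 fold change -0.24 ± 0.19 SE, adjusted p = 0.349), and at 62.1 ± 6.17 CPM (mean ± SD, n = 3) in WT HSC, so its level did not mark the KO label.

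**Figure D1:**
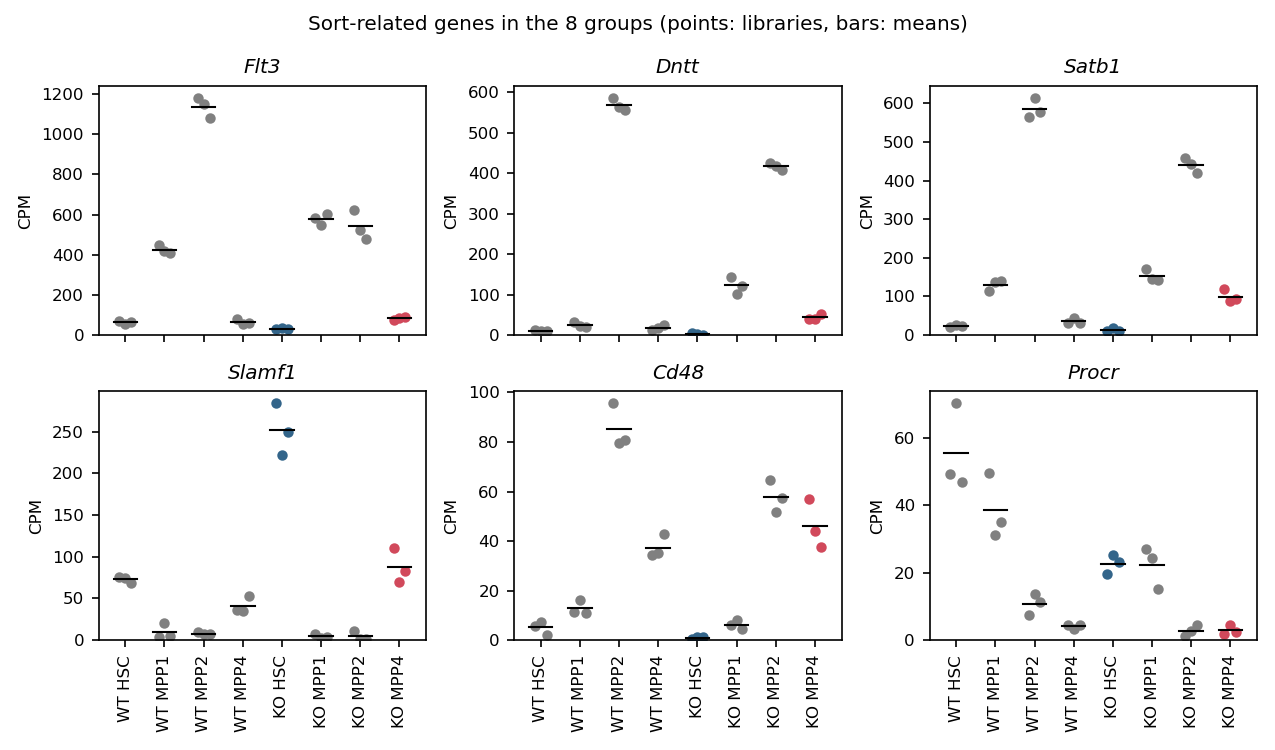
Levels in CPM (y axis, linear from 0) of 6 genes used to tell stem and progenitor populations apart, in the 8 groups of 3 libraries (x axis). Points are libraries, horizontal bars are means, and the 2 KO groups compared are coloured; Flt3, Dntt and Satb1 are highest in libraries labelled MPP2 (Flt3 also in KO MPP1), and Slamf1 is higher in libraries labelled HSC and MPP4 than in those labelled MPP1 and MPP2.

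The main features of the comparison were as follows. Transcription factors and surface or adhesion genes of stem cells, among them Mecom, Hlf, Fli1 and Vwf, were lower in the KO MPP4-labelled libraries. Genes of granulocyte progenitors (Mpo, Elane, Ms4a3, Csf2rb), of mast cells and basophils (Ms4a2, Cpa3, Mcpt8), of red cell precursors (Car1, Ermap, haemoglobins), immunoglobulin genes (Ighm, Igha, Jchain) and part of the genes of mitosis were higher. Of 21964 genes tested, 3858 (17.6%) were called higher and 2677 (12.2%) lower at a Benjamini-Hochberg adjusted p below 0.05 (edgeR quasi-likelihood test). Total counts were 3360835 to 3667509 in the KO HSC libraries and 3148370 to 3410018 in the KO MPP4-labelled ones. Replicates varied beyond counting error, with chi-square values per gene of 5.32 to 6.90 among KO HSC and 9.12 to 9.72 among KO MPP4-labelled libraries. Since these are bulk samples, fewer cells of a type and less RNA per cell cannot be told apart.

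The level of non-specific signal differed between the groups compared. Olfactory and vomeronasal receptors, 1770 genes of sensory neurons that blood cells are not known to use, held 1951 to 2125 counts in a KO HSC library and 6111 to 6486 in a KO MPP4-labelled one. Spread by gene length over the genome, that rate gave an expected background of 5.45 to 5.83% of all counts in KO HSC and of 18.4 to 19.0% in KO MPP4-labelled libraries. The median log2 fold change was 1.26 in genes whose higher group mean was under 8 CPM, against -0.35 in those of at least 64 CPM. After this background had been subtracted from every gene, 777 of 18832 genes tested (4.13%) were called higher and 927 (4.92%) lower. Rises made up 59.0% of the calls before subtraction and 45.6% after it. Of the 2677 genes called lower, 900 were called lower again, and of the 3858 called higher 608 were. Results are therefore read both as deposited and after subtraction. The part of the background in any single difference was not tested.

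**Figure D2:**
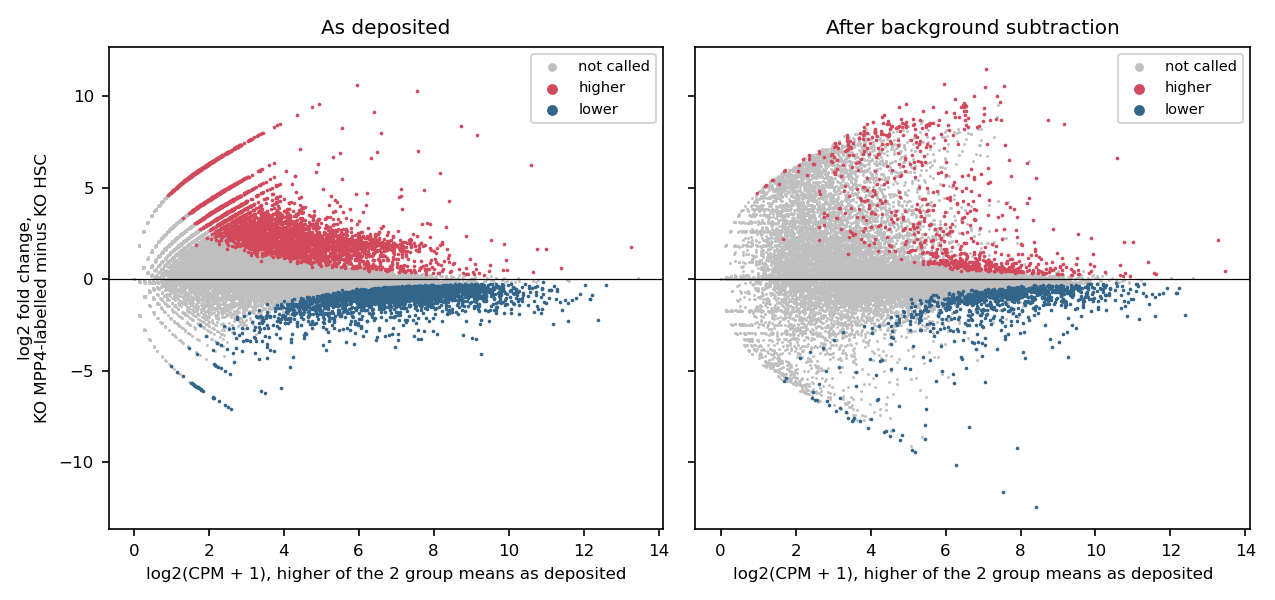
Log2 fold change of each gene, KO MPP4-labelled minus KO HSC (y axis), against the higher of the 2 group means as deposited (x axis, log2 of CPM + 1), for 21964 genes as deposited (left) and 18832 genes after background subtraction (right). Colours mark the genes called higher or lower; most of the rises called as deposited among low genes are not called after subtraction, while calls of both directions among abundant genes are seen in both panels.

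The transcription factors that maintain stem cells fell almost as a block. Of 21 tested, 20 were called lower, with a median log2 fold change of -1.40 against 0.18 over all genes tested, and 14 of 21 were called lower after subtraction. Mecom, the factor Evi1 and its longer form that HSC need to persist, stood at 5296, 5205 and 5528 CPM in KO HSC and at 1079, 1278 and 1135 CPM in MPP4-labelled libraries (log2 fold change -2.20 ± 0.06 SE, adjusted p = 9.48e-29). Every MPP4-labelled library lay below every HSC library by more than 3-fold. Hlf, a leucine zipper factor regarded as one of the most specific genes of HSC, went from 1812, 1984 and 1854 CPM to 651, 581 and 621 CPM (log2 fold change -1.61 ± 0.06 SE, adjusted p = 7.87e-24). Meis1, a homeodomain cofactor of Hox proteins, fell by 1.24 on the log2 scale, from 2710.2, 2496 and 2671 CPM to 1047, 1122 and 1161 CPM (adjusted p = 1.11e-19). Fli1, Erg and Etv6, factors of the Ets family, were also lower, Fli1 with 2847, 2737 and 2713 CPM against 870.2, 855 and 887 CPM (log2 fold change -1.67 ± 0.07 SE, adjusted p = 8.75e-24). Mllt3, a subunit of elongation complexes that supports HSC in culture, went from 1221, 1223 and 1303 CPM to 346, 297 and 351 CPM (log2 fold change -1.91 ± 0.09 SE, adjusted p = 2.16e-20). Prdm16, a zinc finger factor related to Mecom, went from 945, 936 and 933 CPM to 258, 266 and 265 CPM (log2 fold change -1.83 ± 0.13 SE, adjusted p = 2.65e-15). The groups did not overlap for any of these genes, which held for 7973 of all 21964 genes tested. All of the genes named here were called lower after subtraction as well (Mecom -1.93, Hlf -1.26, Fli1 -1.33, Prdm16 -1.71 on the log2 scale).

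Runx1, which stem cells share with progenitors of several lineages, went from 3679, 3923 and 3996 CPM to 2159, 2093 and 2306 CPM (log2 fold change -0.82 ± 0.05 SE, adjusted p = 5.79e-17). Gata2, needed for both HSC and mast cells, stood at 536, 427 and 503 CPM and 281, 379 and 286 CPM (log2 fold change -0.63 ± 0.16 SE, adjusted p = 0.00203), and it was not called after subtraction (-0.27, adjusted p = 0.385). Tal1, Lmo2, Hoxa9, Gfi1b and Foxo3 were likewise called lower as deposited and not after subtraction. Bmi1, a Polycomb protein, had a log2 fold change of -0.36 (adjusted p = 0.346) and was the member of the list that passed in neither.

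Surface and adhesion genes of stem cells followed the same direction, with 16 of 23 called lower and 1 higher (median log2 fold change -1.52), and 12 lower and 1 higher after subtraction. Vwf, the clotting factor that marks platelet-biased HSC, stood at 475, 428 and 414 CPM in KO HSC and at 49.9, 66.8 and 45.8 CPM in MPP4-labelled libraries (log2 fold change -3.02 ± 0.18 SE, adjusted p = 1.8e-17). Procr, the EPCR receptor used to purify HSC, went from 19.5, 25.3 and 23.1 CPM to 1.95, 4.49 and 2.47 CPM (log2 fold change -2.92 ± 0.43 SE, adjusted p = 9.68e-07). Fgd5, a guanine nucleotide exchange factor used as an HSC reporter, went from 197, 198 and 182 CPM to 37.6, 31.2 and 16.7 CPM (log2 fold change -2.75 ± 0.24 SE, adjusted p = 2.71e-12). For these 3 genes every MPP4-labelled library lay far below every HSC library, and each gene was called lower after subtraction (adjusted p = 6.05e-08 for Vwf, 0.000184 for Procr and 2.07e-05 for Fgd5). Eng and Tie1, receptors shared with endothelium, and Robo4 were lower too, Eng with 641, 599 and 543 CPM against 174, 176 and 195 CPM (log2 fold change -1.71 ± 0.12 SE, adjusted p = 1.13e-15). The adhesion receptor Adgrg1 kept more of its level, at 5104, 4636 and 4724 CPM against 2609, 2798 and 2684 CPM (log2 fold change -0.84 ± 0.05 SE, adjusted p = 1.08e-16). Cxcr4, the receptor that anchors HSC in their niche, was the exception and was higher, at 149.7, 166 and 157 CPM against 113, 111 and 113 CPM in KO HSC (log2 fold change 0.49 ± 0.16 SE, adjusted p = 0.0165). Itga2b (0.13, adjusted p = 0.846) and Selp (0.01, adjusted p = 0.983) showed no difference that passed the test.

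The sort markers themselves split evenly, with 4 of 8 called higher and 4 lower as deposited. Cd48, whose absence defines HSC, was at 0.348, 1.35 and 1.26 CPM in KO HSC and at 57.1, 44.0 and 37.4 CPM in MPP4-labelled libraries (log2 fold change 5.48 ± 0.44 SE, adjusted p = 2.29e-13). Flt3 (log2 fold change 1.44 ± 0.13 SE, adjusted p = 8.27e-12), Cd34 (log2 fold change 1.61 ± 0.20 SE, adjusted p = 2.38e-08) and Il7r (log2 fold change 3.52 ± 0.49 SE, adjusted p = 2.7e-07) were higher. Procr, Kit (log2 fold change -0.85 ± 0.08 SE, adjusted p = 5.08e-12), Slamf1 (log2 fold change -1.52 ± 0.32 SE, adjusted p = 0.00029) and Ly6a, which encodes Sca-1 (log2 fold change -0.74 ± 0.23 SE, adjusted p = 0.0131), were lower. Slamf1 and Ly6a were not called after subtraction (-1.23, adjusted p = 0.303 and -0.39, adjusted p = 0.319). Procr did not set KO HSC apart from every other KO population: it was at 19.5 to 25.3 CPM there and at 15.2 to 27.1 CPM in KO MPP1, against 46.9 to 70.3 CPM in WT HSC.

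The genes that were higher by the most belonged to several lineages at once. Among those called both as deposited and after subtraction, with at least 20 CPM in the higher group and no overlap between libraries, the 12 largest rises were Igha, Ms4a2, Mcpt8, Jchain, Ighm, Elane, Mpo, Cd48, Ms4a3, Car1, Rab44 and Ermap. Of the 12 largest falls, the 11 shown were Lhcgr, Ache, Clec9a, Pygm, Ccm2l, Art4, Mtss2, Ctsf, Trpc6, Pnma8c and Evc2. All 23 have no overlap between libraries by this rule, and their values are given as a description. Lhcgr, the luteinizing hormone receptor, which HSC are known to carry, had the largest fall, from 623, 623 and 608 CPM to 30.9, 36.5 and 40.5 CPM (log2 fold change -4.10 ± 0.16 SE, adjusted p = 6.94e-24). Ache, acetylcholinesterase, went from 115, 147 and 111 CPM to 8.08, 11.1 and 9.28 CPM (log2 fold change -3.71 ± 0.33 SE, adjusted p = 5.08e-12). Trpc6, a calcium channel of platelets among other cells, went from 528, 522 and 512 CPM to 68.3, 51.5 and 47.0 CPM (log2 fold change -3.22 ± 0.17 SE, adjusted p = 1.84e-19). Pygm, glycogen phosphorylase, fell from 87.5, 91.9 and 80.9 CPM to 5.57, 11.98 and 8.35 CPM (log2 fold change -3.33 ± 0.29 SE, adjusted p = 1.45e-12). Ccm2l, Mtss2, Ctsf and Pnma8c had log2 fold changes between -3.31 for Ccm2l and -3.10 for Pnma8c. Clec9a, the receptor for dead cells on dendritic cells, went from 24.7, 33.8 and 38.2 CPM to 3.34, 1.20 and 3.40 CPM (log2 fold change -3.59 ± 0.57 SE, adjusted p = 3.03e-06). Evc2, a ciliary protein, was uneven, at 5.02, 29.7 and 5.57 CPM in MPP4-labelled libraries against 114, 114 and 109 CPM, so that 1 of the 3 libraries lay well above the others. Art4, which carries the Dombrock blood group, had a like spread, with 13.1, 12.3 and 37.1 CPM against 208, 216 and 179 CPM. Among the rises that are not taken up with their lineage elsewhere, Rab44, a large Rab GTPase of granulocytes and mast cells, went from 8.36, 4.73 and 8.21 CPM to 251, 195 and 199 CPM (log2 fold change 4.91 ± 0.31 SE, adjusted p = 9.52e-17).

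**Figure D3:**
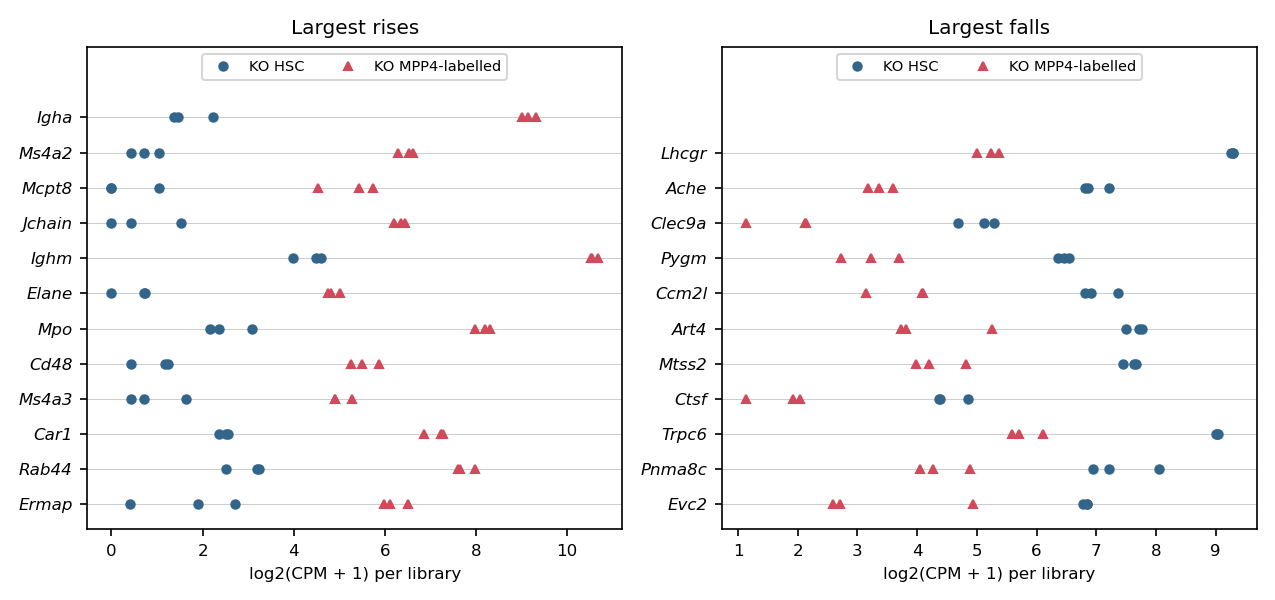
Level of the 12 genes with the largest rise (left) and 11 of the 12 with the largest fall (right) in each of the 3 KO HSC libraries (circles) and 3 KO MPP4-labelled libraries (triangles), as log2 of CPM + 1. The libraries of the groups do not overlap for any of the 23 genes, which the rule for choosing them required; Evc2 and Art4 each have 1 MPP4-labelled library above the others.

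Genes of granulocyte and monocyte progenitors were higher. Of 16 granule protein genes tested, 10 were called higher and the other 6 were not called (median log2 fold change 2.67, or 2.55 with the 4 genes at or under a floor of 3 counts over a group set to their bound), and 7 of 15 were called higher after subtraction. Mpo, myeloperoxidase, the enzyme that forms hypochlorous acid in neutrophils, stood at 3.48, 7.43 and 4.11 CPM in KO HSC and at 251, 317 and 290.4 CPM in MPP4-labelled libraries (log2 fold change 5.83 ± 0.18 SE, adjusted p = 8.17e-28). It was thus close to absent in HSC and present at like levels in all 3 MPP4-labelled libraries. Plac8, a small protein of myeloid and lymphoid progenitors, went from 12.5, 6.76 and 10.1 CPM to 137, 155 and 135 CPM (log2 fold change 3.86 ± 0.23 SE, adjusted p = 3.27e-17). Elane, neutrophil elastase, had at most 2 counts in any KO HSC library and stood at 27.3, 26.1 and 31.5 CPM in MPP4-labelled ones (adjusted p = 3.98e-11). Ms4a3, a marker of granulocyte and monocyte progenitors, went from 2.09, 0.338 and 0.632 CPM to 37.9, 29.1 and 29.1 CPM (log2 fold change 4.94 ± 0.49 SE, adjusted p = 5.64e-11). Ctsg, cathepsin G, rose from 0, 1.35 and 0 CPM to 20.9, 17.7 and 14.2 CPM (log2 fold change 5.19 ± 0.66 SE, adjusted p = 3.9e-08). Camp and Lyz2, genes of later myeloid cells, were not called: Camp was at 3.48, 0.338 and 0.632 CPM in KO HSC and at 0.279, 0.899 and 0 CPM in MPP4-labelled libraries (adjusted p = 0.378), and Lyz2 had a log2 fold change of -0.33 (adjusted p = 0.609). Prtn3, proteinase 3, whose gene lies beside Elane, was at 17.1, 2.03 and 6.32 CPM and 12.3, 10.2 and 8.04 CPM with overlapping libraries (adjusted p = 0.744).

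Receptors for myeloid cytokines showed the same direction, with 11 of 15 called higher and 1 lower as deposited (median log2 fold change 1.78) and 9 called higher after subtraction. Csf2rb, the common beta chain through which interleukin 3, interleukin 5 and GM-CSF signal, stood at 39.4, 42.6 and 48.7 CPM in KO HSC and at 308, 279 and 372 CPM in MPP4-labelled libraries (log2 fold change 2.88 ± 0.16 SE, adjusted p = 2e-18). Its near copy Csf2rb2, the beta chain specific to interleukin 3 in mice, went from 17.8, 9.12 and 16.4 CPM to 39.6, 64.1 and 45.8 CPM (log2 fold change 1.78 ± 0.41 SE, adjusted p = 0.000717). Reads that both genes could share make the split between them uncertain. The ligand-binding chains Il3ra (-0.21, adjusted p = 0.778) and Csf2ra (0.15, adjusted p = 0.833) did not pass the test. Csf3r, the G-CSF receptor, went from 54.7, 57.4 and 70.4 CPM to 127, 123 and 106 CPM (log2 fold change 0.96 ± 0.13 SE, adjusted p = 1.55e-07). Ifngr1, a chain of the interferon gamma receptor, went from 72.8, 73.3 and 73.9 CPM to 153, 150.1 and 171 CPM (log2 fold change 1.11 ± 0.17 SE, adjusted p = 1.05e-06). Clec12a, an inhibitory lectin of myeloid cells, went from 0.697, 2.03 and 0 CPM to 13.7, 8.09 and 17.3 CPM (log2 fold change 3.81 ± 0.58 SE, adjusted p = 1.37e-06). Csf1r, the M-CSF receptor, was called higher as deposited (log2 fold change 2.05 ± 0.50 SE, adjusted p = 0.00167) and not after subtraction (2.73, adjusted p = 0.116). Il6ra was lower as deposited (log2 fold change -0.55 ± 0.22 SE, adjusted p = 0.0484) and not called after subtraction (-0.38, adjusted p = 0.393).

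Of 14 transcription factors of the myeloid lineage, 3 were called higher and 2 lower as deposited, and 1 higher after subtraction. Over all genes tested, 17.6% were called higher and 12.2% lower as deposited, so the list was near these shares. Irf8, which directs monocyte and dendritic cell fate, was the one called in both, at 2.79, 4.05 and 8.21 CPM and 54.6, 38.0 and 41.1 CPM (log2 fold change 3.13 ± 0.38 SE, adjusted p = 1.3e-08). Spi1, which encodes PU.1, the master factor of myeloid and lymphoid cells, was at 134, 189.5 and 195 CPM and 127, 127 and 163 CPM (log2 fold change -0.31 ± 0.16 SE, adjusted p = 0.123). Cebpa, needed for granulocyte progenitors, was at 2.79, 2.03 and 2.84 CPM and 3.07, 5.69 and 7.73 CPM (log2 fold change 1.09 ± 0.84 SE, adjusted p = 0.345). Neither passed the test. The libraries of the groups overlapped for Spi1 and not for Cebpa, whose level was a few CPM. Whether factors and granule proteins differ in their change was not tested.

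Genes of mast cells, basophils and eosinophils had the largest median of the lists described, 4.87 on the log2 scale (4.31 with the 6 genes at or under the floor set to their bound). Of 14 listed, 11 passed the filter on low counts, 10 were called higher as deposited and 7 after subtraction. For 8 of them every KO HSC library had at most 3 counts, so levels and not folds are given for those. Cpa3, the carboxypeptidase of mast cell granules, stood at 3.83, 4.73 and 8.85 CPM in KO HSC and at 123, 138 and 153 CPM in MPP4-labelled libraries (log2 fold change 4.55 ± 0.35 SE, adjusted p = 4.88e-14). Ms4a2, the beta chain of the high-affinity IgE receptor, had 1 to 3 counts in a KO HSC library and stood at 96.7, 77.0 and 91.2 CPM in MPP4-labelled ones (adjusted p = 3.33e-12). Il1rl1, the interleukin 33 receptor, went from 0.697, 2.70 and 2.53 CPM to 41.3, 34.7 and 45.5 CPM (log2 fold change 4.31 ± 0.32 SE, adjusted p = 2.39e-14). All 3 MPP4-labelled libraries carried these genes at like levels. Mcpt8, a basophil protease, was at 42.1, 22.2 and 52.3 CPM and at 0 to 3 counts in KO HSC (adjusted p = 2.49e-06). Epx, eosinophil peroxidase, differed between libraries, at 0, 13.8 and 25.7 CPM against 0 counts in KO HSC (adjusted p = 4.42e-06). Prss34, a basophil protease, was at 20.1, 11.98 and 9.59 CPM against 0 counts (adjusted p = 5.38e-06). The list summed to 10.1 to 17.2 CPM in KO HSC libraries and to 369 to 439 CPM in MPP4-labelled ones, on unscaled library totals.

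The stretch upstream of the start site is shown for Mpo and Elane of the granule list and Cpa3 and Ms4a2 of the mast cell list. These were called higher, while some members of both lists were not. GATA factors and PU.1 are known regulators of such genes. RefSeq (GRCm38.p6) gave the 250 bases before the start, 5′ to 3′ on the strand of the gene. Capitals mark AGATAA or its reverse complement TTATCT, the letters that GATA factors bind, and GAGGAA or TTCCTC, the letters that PU.1 binds. The 2 pairs do not overlap in these windows.
Mpo (+ strand, chr11:87793534-87793783): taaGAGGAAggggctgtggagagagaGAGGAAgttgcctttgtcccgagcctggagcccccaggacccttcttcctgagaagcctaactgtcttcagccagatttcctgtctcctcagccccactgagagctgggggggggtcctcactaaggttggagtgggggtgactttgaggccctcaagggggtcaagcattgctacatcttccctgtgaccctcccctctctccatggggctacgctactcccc
Elane (+ strand, chr10:79886062-79886311): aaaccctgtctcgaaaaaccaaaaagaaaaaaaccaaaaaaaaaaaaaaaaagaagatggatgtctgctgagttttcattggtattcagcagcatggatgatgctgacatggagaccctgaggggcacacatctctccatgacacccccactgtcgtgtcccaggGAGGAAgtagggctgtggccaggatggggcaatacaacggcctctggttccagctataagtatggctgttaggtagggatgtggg
Cpa3 (- strand, chr3:20242182-20242431): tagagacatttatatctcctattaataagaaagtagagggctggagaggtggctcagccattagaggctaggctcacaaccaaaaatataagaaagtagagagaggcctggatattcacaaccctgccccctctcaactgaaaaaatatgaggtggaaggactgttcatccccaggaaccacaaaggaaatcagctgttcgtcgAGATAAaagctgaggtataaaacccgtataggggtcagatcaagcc
Ms4a2 (- strand, chr19:11623720-11623969): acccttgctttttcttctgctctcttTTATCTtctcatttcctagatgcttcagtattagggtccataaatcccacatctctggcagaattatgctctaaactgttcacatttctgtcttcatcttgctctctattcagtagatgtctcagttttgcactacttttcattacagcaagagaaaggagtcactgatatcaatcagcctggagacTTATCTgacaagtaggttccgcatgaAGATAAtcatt
Mpo held 2 matches to GAGGAA and Elane 1, with 0 to AGATAA, and Cpa3 held 1 match to AGATAA and Ms4a2 held 3, with 0 to GAGGAA. Of 32851 promoters of this length, 9.99% held AGATAA and 23.3% held GAGGAA on either strand. Of 18 promoter entries of the granule list, 8 held GAGGAA and 2 AGATAA, and of 12 entries of the mast cell list, 2 held GAGGAA and 6 AGATAA. Of 19 entries of the erythroid list, 8 held GAGGAA and 5 AGATAA, and of 29 entries of the stem cell factor list, 8 and 2 did. These are matches of letters in these windows and say nothing of binding.

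Genes of the red cell lineage were in larger part higher, and those of platelets were lower or not called. Of 24 erythroid genes, 14 were called higher and 1 lower as deposited (median log2 fold change 1.67, or 1.65 with genes at the floor set to their bound), and 12 higher and 2 lower after subtraction. Car1, a carbonic anhydrase of early erythroid progenitors, stood at 4.88, 4.73 and 4.11 CPM in KO HSC and at 115, 149 and 154 CPM in MPP4-labelled libraries (log2 fold change 4.92 ± 0.24 SE, adjusted p = 2.16e-20). Ermap, a membrane protein of erythroblasts, went from 5.58, 2.70 and 0.316 CPM to 62.4, 68.6 and 89.7 CPM (log2 fold change 4.70 ± 0.36 SE, adjusted p = 6.91e-14). Ank1, the ankyrin of the red cell membrane, rose from 34.8, 11.1 and 18.6 CPM to 92.3, 108 and 101 CPM (log2 fold change 2.22 ± 0.25 SE, adjusted p = 1.85e-09). Haemoglobin genes were higher, Hbb-bs with 54.6, 61.7 and 68.0 CPM against 20.9, 14.9 and 18.3 CPM (log2 fold change 1.77 ± 0.19 SE, adjusted p = 3.53e-10). Hba-a1 was likewise higher, with 30.4, 50.02 and 29.1 CPM against 3.48, 9.46 and 6.002 CPM (log2 fold change 2.52 ± 0.30 SE, adjusted p = 7.33e-09). Reads shared with near copies could shift between these genes. The lineage's regulators did not pass the test: Gata1 was at 38.7, 41.6 and 26.5 CPM and 49.1, 38.3 and 39.3 CPM (log2 fold change 0.25 ± 0.44 SE, adjusted p = 0.713). Klf1 had a log2 fold change of 0.33 (adjusted p = 0.785) and Epor, the erythropoietin receptor, of -0.15 (adjusted p = 0.853). Car2 was the member called lower (log2 fold change -1.14 ± 0.18 SE, adjusted p = 2.93e-06).

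Of 18 megakaryocyte and platelet genes, 8 were called lower and 10 were not called as deposited (median log2 fold change -0.85), and 4 were called lower after subtraction. Trpc6 and Vwf, given above, and Nbeal2, needed for platelet alpha granules (372, 318 and 314 CPM against 149.96, 175 and 178 CPM, log2 fold change -0.999 ± 0.13 SE, adjusted p = 4.09e-08), were among those called lower both ways. Pf4, platelet factor 4, was at 5.58, 0 and 4.74 CPM and 0.836, 0 and 0.619 CPM (adjusted p = 0.163), and Gp1ba, a platelet receptor, at 27.5, 16.6 and 29.1 CPM and 17.6, 25.8 and 12.7 CPM (adjusted p = 0.589). These late platelet genes overlapped between the groups.

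Genes of lymphoid priming were in part higher. Of 17 tested, 8 were called higher and 2 lower as deposited (median log2 fold change 1.05), and 7 higher and 2 lower of 16 after subtraction. Ighm, the heavy chain of IgM, which is transcribed from the unrearranged locus in early progenitors as well as in B cells, stood at 21.6, 14.9 and 23.4 CPM in KO HSC and at 1465, 1504 and 1636 CPM in MPP4-labelled libraries (log2 fold change 6.26 ± 0.14 SE, adjusted p = 3.16e-32). Satb1 rose from 10.1, 19.6 and 10.1 CPM to 119.9, 87.2 and 92.5 CPM (log2 fold change 2.91 ± 0.18 SE, adjusted p = 1.29e-16). Dntt went from 6.27, 1.69 and 0.316 CPM to 39.6, 39.8 and 52.9 CPM (log2 fold change 4.02 ± 0.32 SE, adjusted p = 1.5e-13). Its level stayed below that of MPP2-labelled libraries as given above. Blnk, an adaptor of B cell receptor signalling, was also higher (log2 fold change 2.22 ± 0.28 SE, adjusted p = 2.77e-08). Ltb, lymphotoxin beta, was lower, from 20.9, 13.2 and 19.6 CPM to 0.279, 0.899 and 1.55 CPM (log2 fold change -4.27 ± 0.61 SE, adjusted p = 4.38e-07). Lsp1, a leukocyte actin-binding protein, was lower too (log2 fold change -1.32 ± 0.14 SE, adjusted p = 4.6e-10). Notch1 was at 56.4, 56.8 and 33.2 CPM and 39.6, 35.6 and 42.1 CPM (adjusted p = 0.211).

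Lymphoid transcription factors went both ways, with 7 of 17 called higher and 6 lower as deposited, and 4 higher and 3 lower after subtraction. Ikzf3, or Aiolos, went from 1.74, 0.676 and 0.316 CPM to 24.8, 22.5 and 13.3 CPM (log2 fold change 4.44 ± 0.51 SE, adjusted p = 3.08e-09). The expected background was 54.9% of the Ikzf3 counts in MPP4-labelled libraries and exceeded those in KO HSC. Ikzf3 was still called higher after subtraction (adjusted p = 0.000991). Pou2af1, a coactivator of B cells, rose from 0.348, 0.676 and 1.58 CPM to 13.4, 12.6 and 23.8 CPM (log2 fold change 4.17 ± 0.60 SE, adjusted p = 4.7e-07). Bcl11a, needed for lymphoid development, was lower, from 677, 765 and 800.2 CPM to 403, 419 and 459.6 CPM (log2 fold change -0.81 ± 0.09 SE, adjusted p = 4.88e-10). So was Mef2c (log2 fold change -1.07 ± 0.12 SE, adjusted p = 3.55e-09). Ebf1 and Pax5, factors of committed B cells, were called higher as deposited and not after subtraction (Ebf1 2.26, adjusted p = 0.221). Their libraries were uneven, with Ebf1 at 61.9, 27.0 and 82.0 CPM.

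Markers of mature lymphocytes moved with these genes. Of 16 tested, 8 were called higher and the other 8 were not called as deposited, and 6 of 13 were higher after subtraction. The list summed to 24.1 to 39.3 CPM in KO HSC and to 144 to 193 CPM in MPP4-labelled libraries, on unscaled library totals. Jchain, the joining chain of secreted IgM and IgA, was at 0, 0.338 and 1.90 CPM and 81.4, 72.2 and 85.7 CPM (log2 fold change 6.62 ± 0.60 SE, adjusted p = 5.44e-12). Igha, the heavy chain of IgA, was at 1.74, 3.72 and 1.58 CPM and 516, 567 and 632 CPM (log2 fold change 7.91 ± 0.25 SE, adjusted p = 1.84e-27). Nkg7, a granule protein of killer cells, was at 16.4, 9.29 and 16.4 CPM against 1 to 3 counts in a KO HSC library (adjusted p = 0.000105). Cd79a, a chain of the B cell receptor, was at 7.53, 3.29 and 1.55 CPM against 0 counts in KO HSC (adjusted p = 0.000113). Cd8a, Cd4 and Cd79b did not differ in a way that passed the test (adjusted p 0.756, 0.895 and 0.874). The part of mature lymphocytes in the differences of lymphoid genes was not tested. Rag1, the recombinase subunit, had 0 counts in all 6 libraries. The macrophage and dendritic cell list summed to 68.7 to 90.5 CPM in KO HSC and to 72.4 to 102.3 CPM in MPP4-labelled libraries, on unscaled totals. Scaling factors were 0.856 to 0.865 in KO HSC and 1.03 to 1.06 in MPP4-labelled libraries. Scaling would thus raise the HSC sums and lower the others, so no direction is read from them. Of the genes in this list, 3 of 11 were called higher and 3 lower as deposited, against 17.6% and 12.2% over all genes tested. The stromal and endothelial list summed to 178 to 213 and 173 to 293 CPM, also on unscaled totals. As deposited, 8 of 17 were called higher and 2 lower, the latter near the 12.2% over all genes tested. After subtraction 1 of 15 was called each way, against 4.13% higher and 4.92% lower over all genes tested.

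Genes of mitosis were in part higher. Of 29 genes of G2 and mitosis, 13 were called higher and the other 16 were not called as deposited (median log2 fold change 0.54), and 16 higher after subtraction. Mki67, the proliferation antigen Ki-67, was at 1229, 1195 and 1222 CPM in KO HSC and at 1592, 1519 and 1730.2 CPM in MPP4-labelled libraries (log2 fold change 0.41 ± 0.07 SE, adjusted p = 3.77e-06). Top2a, the topoisomerase that untangles sister chromosomes, went from 152, 171 and 206 CPM to 310.2, 334 and 381 CPM (log2 fold change 0.96 ± 0.14 SE, adjusted p = 5.54e-07). Ect2, needed for cytokinesis, rose from 25.8, 25.7 and 34.8 CPM to 87.2, 101 and 77.3 CPM (log2 fold change 1.62 ± 0.24 SE, adjusted p = 1.18e-06). Aurka and Aurkb, mitotic kinases, were higher (1.04, adjusted p = 0.00048, and 1.16, adjusted p = 0.00178, on the log2 scale). Of 33 DNA replication genes, 3 were called higher and 3 lower (median log2 fold change 0.01), below the 17.6% and 12.2% over all genes, and 4 were higher after subtraction. Among the higher ones were the helicase subunit Mcm7 (log2 fold change 0.49 ± 0.14 SE, adjusted p = 0.00785) and the initiation factor Mcm10 (log2 fold change 1.07 ± 0.27 SE, adjusted p = 0.00198).

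Of 8 G1 cyclins and their kinases, 2 were called lower, 1 higher and 5 were not called, against 12.2% lower and 17.6% higher over all genes tested. Ccnd3 was at 943, 885 and 1025 CPM and 275, 399.6 and 414 CPM (log2 fold change -1.39 ± 0.10 SE, adjusted p = 2.44e-14). Ccnd2 was lower as well (log2 fold change -1.13 ± 0.12 SE, adjusted p = 6.64e-10). Cdk6, the kinase whose level sets how fast HSC leave quiescence, was at 1807, 1868 and 1683 CPM and 2614, 2588 and 2907 CPM (log2 fold change 0.60 ± 0.06 SE, adjusted p = 3.58e-11). All 3 calls held after subtraction. Of 9 cell cycle inhibitors and pocket proteins, Rbl2 was called lower (log2 fold change -0.66 ± 0.17 SE, adjusted p = 0.00288) as deposited and not after subtraction. Cdkn2d was called higher as deposited (adjusted p = 0.0215) and not after subtraction (adjusted p = 0.0825), at 3.90, 0.899 and 0.619 CPM in MPP4-labelled libraries against 0 counts in every KO HSC library. Cdkn1c, the p57 protein of quiescent HSC, was at 4.18, 5.40 and 6.32 CPM and 0.557, 0.599 and 1.24 CPM without passing the test (adjusted p = 0.0667).

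Genes of the type I interferon response were in larger part lower. Of 34 tested, 22 were called lower and the other 12 were not called as deposited (median log2 fold change -1.07), and 8 lower and 1 higher after subtraction. Oas2, which makes the second messenger that activates RNase L, was at 319, 407 and 432 CPM in KO HSC and at 90.3, 156 and 94.3 CPM in MPP4-labelled libraries (log2 fold change -1.76 ± 0.16 SE, adjusted p = 1.21e-11). Oasl2, a relative, went from 298, 275 and 266 CPM to 84.5, 80.0 and 128 CPM (log2 fold change -1.52 ± 0.15 SE, adjusted p = 1.09e-10). Ifi44 fell from 79.1, 73.0 and 64.8 CPM to 13.9, 14.4 and 2.17 CPM (log2 fold change -2.82 ± 0.34 SE, adjusted p = 1.2e-08). The transducer Stat2 was lower too (log2 fold change -1.20 ± 0.22 SE, adjusted p = 3.38e-05), and each of these calls held after subtraction. Genes of antigen presentation by MHC class I followed, with 8 of 12 called lower (median -0.63) and 3 after subtraction. Nlrc5, the transactivator of class I genes, was at 787, 749.6 and 696 CPM and 298, 263 and 252 CPM (log2 fold change -1.46 ± 0.10 SE, adjusted p = 2.06e-15). H2-K1 (log2 fold change -0.43 ± 0.11 SE, adjusted p = 0.00203) and H2-D1 (log2 fold change -0.46 ± 0.11 SE, adjusted p = 0.000898) were called as deposited and not after subtraction. Of MHC class II genes, Cd74, the invariant chain, was lower (log2 fold change -2.35 ± 0.42 SE, adjusted p = 2.41e-05) and H2-Ob higher (log2 fold change 1.78 ± 0.29 SE, adjusted p = 6.05e-06).

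Signalling genes known for stem cell maintenance went in both directions. Of 24 genes of the TGF-beta and BMP pathways, 9 were called lower and 3 higher as deposited, and 7 lower and 3 higher after subtraction. Over all genes tested, 12.2% were lower and 17.6% higher as deposited, and 4.92% and 4.13% after subtraction. The rises as deposited were thus no more common than over all genes. Smad3, the transducer of TGF-beta, went from 404, 443 and 387 CPM to 210.4, 203 and 186 CPM (log2 fold change -1.04 ± 0.11 SE, adjusted p = 4.71e-10). Ltbp3, which stores latent TGF-beta, went from 195, 178 and 165 CPM to 70.5, 71.3 and 57.8 CPM (log2 fold change -1.43 ± 0.16 SE, adjusted p = 2.64e-09). The receptor chain Bmpr2 was lower (log2 fold change -0.89 ± 0.12 SE, adjusted p = 8.83e-08). Tgfbr1, a receptor chain of the same pathway, was higher (log2 fold change 0.59 ± 0.20 SE, adjusted p = 0.0213). Of 14 Notch pathway genes, 4 were called lower and 2 higher, against 12.2% and 17.6% of all genes tested. Maml2, a coactivator of Notch, was the one called after subtraction (1724, 1595 and 1616 CPM against 437, 545 and 459.9 CPM, log2 fold change -1.78 ± 0.08 SE, adjusted p = 7.66e-22). Of 12 genes of the Myc and Max network, 7 were called lower as deposited and 2 after subtraction. Myc, which drives growth and division, was at 540.1, 477 and 456 CPM and 294, 316 and 268 CPM (log2 fold change -0.75 ± 0.12 SE, adjusted p = 2.94e-06) and was not called after subtraction (-0.38, adjusted p = 0.0503). Mycn, its relative, was at 28.9, 57.4 and 28.1 CPM and 5.02, 11.1 and 4.02 CPM (log2 fold change -2.50 ± 0.46 SE, adjusted p = 4e-05).

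Of 23 chromatin and DNA methylation regulators, 12 were called lower and 1 higher, and 6 lower and 2 higher after subtraction. Hdac9, a class IIa histone deacetylase (688, 665 and 627 CPM against 239, 197 and 175 CPM, log2 fold change -1.70 ± 0.10 SE, adjusted p = 1.29e-17), was lower. Tet1 (log2 fold change -1.03 ± 0.12 SE, adjusted p = 1.04e-08) and Dnmt3a (log2 fold change -0.81 ± 0.14 SE, adjusted p = 9.25e-06), which remove and set DNA methylation, were lower as well. Among immediate early genes, Egr1 was at 115, 85.5 and 112 CPM and 30.1, 22.2 and 13.3 CPM (log2 fold change -2.24 ± 0.20 SE, adjusted p = 2.61e-12). Fosb was lower as well (log2 fold change -0.94 ± 0.13 SE, adjusted p = 3.19e-07). In all, 5 of 24 immediate early genes were called lower and 2 higher as deposited, against 12.2% and 17.6% of all genes tested. After subtraction 3 were called lower and 1 higher.

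Integrins and chemokine receptors serve progenitors to attach and move. Of 18 integrin chains, 5 were called higher and 1 lower as deposited and 4 higher after subtraction. Over all genes tested, 17.6% were higher and 12.2% lower as deposited, and 4.13% higher after subtraction. Itga4, a chain of VLA-4, was at 429, 413 and 416 CPM and 703, 663 and 815 CPM (log2 fold change 0.79 ± 0.09 SE, adjusted p = 3.73e-09). Itgal, a chain of LFA-1, was at 21.6, 10.1 and 9.79 CPM and 55.5, 58.7 and 52.6 CPM (log2 fold change 2.01 ± 0.26 SE, adjusted p = 7.56e-08). Of 15 chemokine and migration receptors, 8 were called higher as deposited and 2 after subtraction, namely Cxcr4 and Ccr2, the latter at 7.25, 8.09 and 7.11 CPM against 0 counts in KO HSC (adjusted p = 4.52e-05).

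Components of P-bodies, the subject of the series, were measured in 37 genes. As deposited, 10 were called lower and 27 were not called (median log2 fold change -0.30, or -0.19 with median-of-ratios scaling, which moved the median of all genes from 0.18 to 0.29). Tnrc6b, a scaffold of microRNA silencing, was at 732, 828 and 785 CPM and 583, 551 and 614 CPM (log2 fold change -0.42 ± 0.08 SE, adjusted p = 2.57e-05). Ago2, which carries microRNAs, was at 330.0, 391 and 349 CPM and 263, 249 and 283 CPM (log2 fold change -0.43 ± 0.11 SE, adjusted p = 0.0024). After subtraction 1 was called higher and the 10 above were not called (Tnrc6b -0.12, adjusted p = 0.298, Ago2 -0.11, adjusted p = 0.542), with a median of 0.00. Of 48 nuclear oxidative phosphorylation genes, 1 was called lower, of 21 glycolysis genes 4 were and of 23 cholesterol synthesis genes 4 were, against 12.2% of all genes. Slc2a1, the glucose transporter GLUT1 of the glycolysis list, was lower both ways (log2 fold change -1.31 ± 0.20 SE, adjusted p = 2.11e-06). Of 79 cytosolic ribosomal protein genes, 7 were called lower and 1 higher as deposited, both below the 12.2% and 17.6% over all genes tested. After subtraction 1 of 75 was lower and 10 were higher, against 4.92% and 4.13% over all genes tested. The direction of the few calls among ribosomal protein genes thus depended on the subtraction. Their median log2 fold change also turned sign with median-of-ratios scaling, from -0.04 to 0.07. Of 14 mitochondrially encoded genes, 7 were called lower as deposited, and 2 lower and 2 higher after subtraction.

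**Figure D4:**
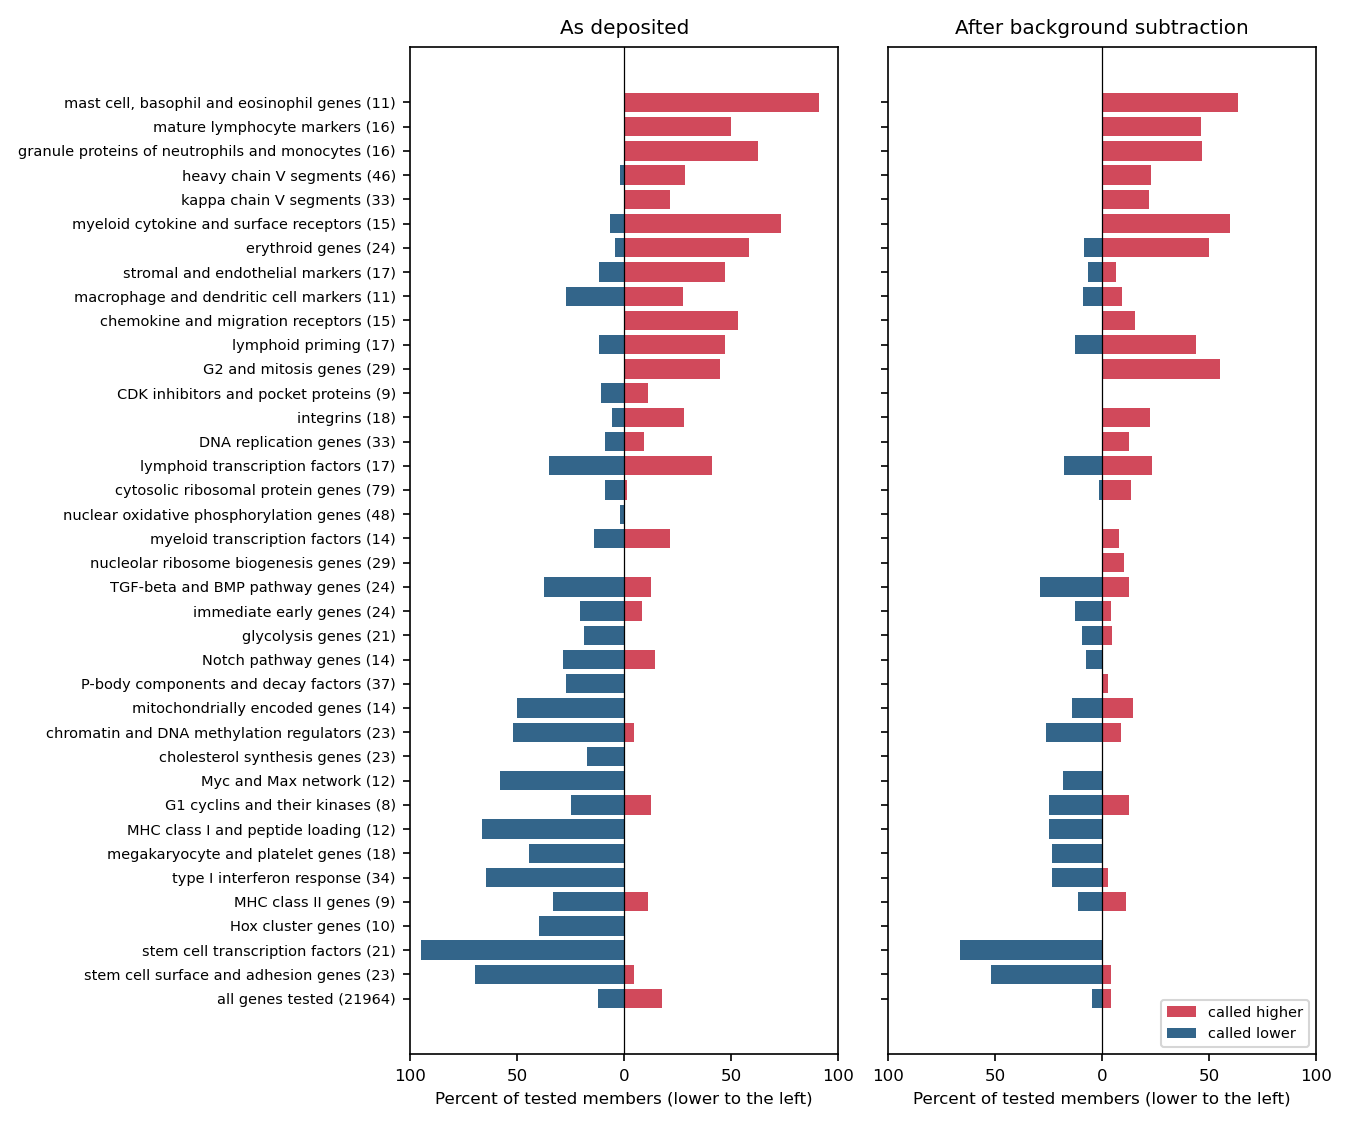
Percent of the tested members of each gene list (y axis, number tested as deposited in parentheses) called higher (right) or lower (left) in KO MPP4-labelled against KO HSC libraries, as deposited and after background subtraction; the lowest bar is all genes tested. Mast cell, granule and mitosis lists lie to the right in both panels and the stem cell lists to the left, while the P-body, cholesterol and Hox lists have calls to the left as deposited that are not there after subtraction.

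The difference between populations was then compared with that in WT animals, by testing in the same fit whether the log2 fold change between MPP4-labelled and HSC libraries differed between KO and WT. As deposited, 1294 genes (5.89%) had a higher change in KO and 626 (2.85%) a lower one; after subtraction 248 (1.32%) and 247 (1.31%) did. The expected background differed here as well, at 20.8 to 23.8% of counts in WT HSC and 31.0 to 31.1% in WT MPP4-labelled libraries. In WT animals 896 genes (4.76%) were called higher and 1221 (6.48%) lower after subtraction. As deposited, 640 genes (2.91%) were called higher and 1633 (7.43%) lower in WT. Of the KO calls as deposited, 261 rises (6.77% of the KO list and 40.8% of the WT list) and 1168 falls (43.6% and 71.5%) were called in the same direction in WT, and 13 rises and 44 falls in the opposite one. Of the KO calls after subtraction, 282 rises (36.3% of the KO list and 31.5% of the WT list) and 510 falls (55.0% and 41.8%) were called in the same direction in WT, and 9 rises and 24 falls were called in the opposite one.

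Of 15 myeloid cytokine and surface receptors, 6 had a higher change in KO as deposited and 4 after subtraction. Csf2rb went from 43.5 ± 4.71 CPM in KO HSC to 319.9 ± 47.4 CPM in KO MPP4-labelled libraries (mean ± SD, n = 3), while WT libraries were at 72.6 ± 14.2 CPM and 61.9 ± 8.79 CPM (difference of log2 fold changes 3.10 ± 0.22 SE, adjusted p = 5.77e-14). Csf3r moved in opposite directions, from 60.9 ± 8.41 CPM to 119 ± 11.0 CPM in KO and from 136 ± 5.57 CPM to 50.3 ± 1.01 CPM in WT (2.40 ± 0.19 SE, adjusted p = 5.43e-13). Mpo and Cxcr4 are not of this list. For Mpo both genotypes rose, from 5.01 ± 2.12 CPM to 286 ± 32.8 CPM in KO and from 11.5 ± 4.20 CPM to 103 ± 5.03 CPM in WT, and the rise was larger in KO (2.67 ± 0.26 SE, adjusted p = 2.65e-10). Cxcr4 rose in KO and fell from 145 ± 19.5 CPM to 43.1 ± 9.46 CPM in WT (2.25 ± 0.23 SE, adjusted p = 1.46e-09). These 4 differences held after subtraction (Csf2rb 3.32, Csf3r 2.62, Mpo 2.79 and Cxcr4 2.41, adjusted p at most 4.22e-07 for Cxcr4).

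Several stem cell factors also changed differently between genotypes. Mecom fell further in KO, from 5343 ± 166 CPM to 1164 ± 103 CPM against 1871 ± 69.0 CPM to 616 ± 19.9 CPM in WT (-0.59 ± 0.09 SE, adjusted p = 2.68e-06), which was not called after subtraction (-0.31, adjusted p = 0.0859). Hlf fell less in KO than in WT, from 1883 ± 89.9 CPM to 618 ± 35.0 CPM against 1383 ± 35.2 CPM to 258 ± 16.6 CPM (0.82 ± 0.09 SE, adjusted p = 4.82e-09). Vwf fell further in KO, with 163 ± 14.2 CPM and 111 ± 9.60 CPM in WT (-2.46 ± 0.24 SE, adjusted p = 5.67e-10). Of 21 stem cell transcription factors, 10 had a lower change in KO and 1 a higher one, and 6 and 1 after subtraction. Wwox (-1.55 ± 0.11 SE, adjusted p = 1.86e-14), Cux1 (-1.27 ± 0.09 SE, adjusted p = 1.47e-13), Smyd3 (-1.18 ± 0.09 SE, adjusted p = 5.8e-13) and Lrmda (-1.01 ± 0.08 SE, adjusted p = 5.95e-13) shared a higher level in KO HSC than in the other 3 groups. Cux1, a homeodomain factor, stood at 1938 ± 24.3 CPM there and at 1097 ± 45.5 CPM, 562 ± 33.9 CPM and 768 ± 79.4 CPM in KO MPP4-labelled, WT HSC and WT MPP4-labelled libraries. Each of these 4 genes spans more than 300 kb, and each difference was called after subtraction too (from -1.60 for Wwox to -0.92 for Lrmda).

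Atp8b4, a lipid flippase, had the smallest p of the genes named here, with 17.6 ± 1.66 CPM and 338 ± 30.4 CPM in KO against 54.3 ± 5.01 CPM and 128 ± 10.8 CPM in WT (3.02 ± 0.16 SE, adjusted p = 4.07e-18). Arpp21, a phosphoprotein whose gene is active in early lymphoid cells, went from 5.91 ± 3.03 CPM to 134 ± 25.1 CPM in KO, and stood at 57.4 ± 8.21 CPM and 64.6 ± 24.6 CPM in WT (4.32 ± 0.32 SE, adjusted p = 1.47e-13). Gria3, a glutamate receptor subunit, rose in KO and fell in WT (2.11 ± 0.15 SE, adjusted p = 1.86e-14). Some erythroid and proliferation genes had a smaller rise in KO. Of 29 genes of G2 and mitosis, 5 had a lower change in KO as deposited and 3 after subtraction. Mki67 rose from 470.1 ± 37.0 CPM to 1091 ± 53.3 CPM in WT against 1215 ± 17.9 CPM to 1614 ± 107 CPM in KO (-0.81 ± 0.09 SE, adjusted p = 2.76e-08). Cdk6 rose from 661 ± 42.3 CPM to 2044 ± 79.8 CPM against 1786 ± 94.7 CPM to 2703 ± 177 CPM (-1.03 ± 0.08 SE, adjusted p = 9.96e-13). For both, the MPP4-labelled levels of the genotypes were closer than the HSC levels. Among erythroid genes, 5 of 24 had a lower change in KO and 1 a higher one as deposited, against 2.85% and 5.89% over all genes tested. After subtraction 3 had a lower change and 0 a higher one, against 1.31% and 1.32%. Gata1 was at 7.06 ± 4.74 CPM in WT HSC and 41.3 ± 12.7 CPM in WT MPP4-labelled libraries (-2.30 ± 0.64 SE, adjusted p = 0.0175), which is not called after subtraction (adjusted p = 0.249).

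**Figure D5:**
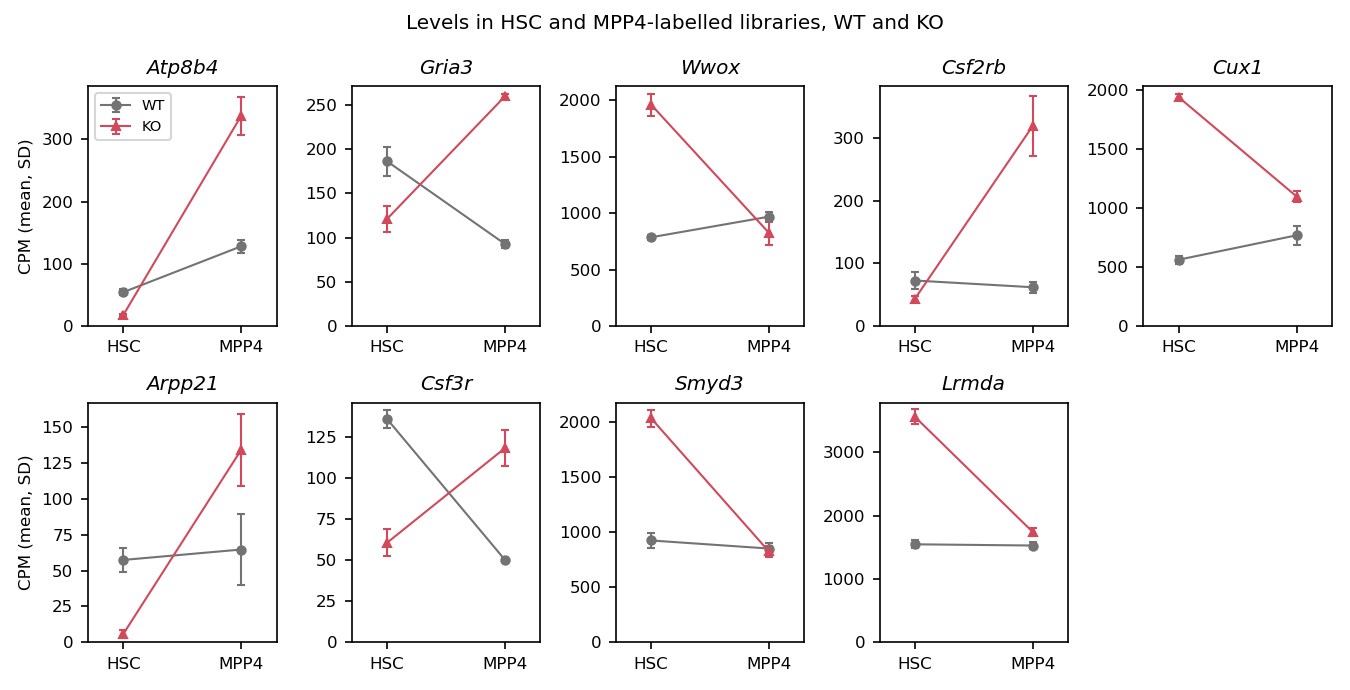
Mean and SD (n = 3 libraries) in CPM, on linear axes from 0, of 9 of the 10 genes with the smallest p for a different population change between genotypes (predicted genes left out), in HSC and MPP4-labelled libraries of WT (circles) and KO (triangles). Atp8b4, Csf2rb and Arpp21 rise in KO and change less in WT, Gria3 and Csf3r move in opposite directions, and Wwox, Cux1, Smyd3 and Lrmda are high in KO HSC.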

How the data were processed

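The authors deposited 1 table of whole-number read counts per gene for all 24 libraries. Per the labels' protocols, RNA of sorted bone marrow cells was extracted with a micro-scale column kit and made into libraries with a NEBNext Ultra II kit. The submitters' processing notes name SAMtools 1.12, DESeq2 and the build mm39. The aligner, the counter and its strand setting are not given in the sources used here, so reads of overlapping, antisense or near-identical genes cannot be assigned with certainty.

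Counts of 56748 genes were filtered with edgeR's filterByExpr (21964 kept), scaled by TMM and fitted with edgeR 4.0.16 (quasi-likelihood F test, R 4.3.3) over all 8 groups. Residual degrees of freedom were 16 and the common biological coefficient of variation was 0.393. P-values were adjusted by Benjamini-Hochberg over all genes tested, a gene being called below 0.05, and standard errors were the log2 fold change divided by the square root of F. CPM of single genes use the TMM-scaled totals, while sums over a list use the unscaled library totals. Ranges over libraries are over 3 libraries. DESeq2 1.42.0, median-of-ratios scaling, other filters, fewer groups and leaving out libraries were the alternatives. Background was estimated per library from counts per kb of gene span in 1770 olfactory and vomeronasal receptor genes and subtracted from each gene in proportion to its span. Spans came from GENCODE M21 (GRCm38), which held 91.9% of the gene identifiers. In data simulated from these libraries with the same 21964 genes, 18 of 100 genes changed by 1.5 times and 58 of 100 changed by 3 times were recovered, with 3 false calls among 79. Apart from the changed genes, the simulated KO MPP4-labelled group had the means of KO HSC, so no difference in background was simulated. These rates are therefore not the error rates of the calls reported here.

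Genes named are Ddx6, Mpo, Csf2rb, Hlf, Mecom and sort markers, the 12 largest rises and 12 largest falls (called both ways, at least 20 CPM, no overlap, leaving out predicted genes, clone names, immunoglobulin segments and shared names), up to 4 called members of each of 41 lists by smallest p with some uncalled ones, and the 10 smallest p for the genotype difference. Others named beside these (among them Vwf, Cxcr4, Mki67, Cdk6 and Gata1 in the genotype comparison) were chosen after their values were seen. Some genes that this rule names are not reported here, so 11 falls and 9 genotype differences are shown; counts over lists and over all genes include them. The comparison and the lists were chosen with earlier results of these data known, and the plasma cell list was added after seeing values. Promoters came from RefSeq (GRCm38.p6). Figures used matplotlib 3.10.9. Replicate numbers were checked as pairs, and same-numbered libraries did not deviate together, which cannot settle whether they come from the same animal.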

Additional observations from a re-analysis of the deposited data

Results flagged for a closer look

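The population change (MPP4-labelled minus HSC) differed between KO and WT by the edgeR test of the difference for 25 of the marker genes, the largest rises and falls and the genes with the smallest p for it, and for 17 of these also after background subtraction. The genes with the smallest p were picked by this same test, and the largest rises and falls by the KO change that enters it. The count of 25 is therefore no measure of how common such differences are. Over all genes tested, 5.89% had a higher and 2.85% a lower change in KO as deposited, and 1.32% and 1.31% after subtraction. Other members of the gene lists were called for this difference as well, among them Vwf, Cxcr4, Mki67, Cdk6, Satb1 and Dntt. Values are the log2 fold change in KO minus that in WT. The change was higher in KO for Atp8b4 (3.02), Gria3 (2.11), Csf2rb (3.10), Arpp21 (4.32), Csf3r (2.40), Mpo (2.67), Hlf (0.82), Flt3 (1.41), Cd34 (1.66) and Cd48 (2.65), which were called both ways. Rab44 (2.61), Car1 (1.22), Ms4a3 (2.78), Elane (3.17), Mcpt8 (6.63) and Ms4a2 (4.0) were called as deposited and not after subtraction. Every KO HSC library had at most 3 counts of Elane, Mcpt8 and Ms4a2, so their fitted differences depend on the prior count.

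The change was lower in KO for Wwox (-1.55), Cux1 (-1.27), Smyd3 (-1.18), Lrmda (-1.01), Ache (-4.54), Lhcgr (-1.36) and Ighm (-1.38), again called both ways, and for Mecom (-0.59) and Trpc6 (-1.10), called as deposited only. Ache stood at 11.9 ± 1.43 CPM in WT HSC and 21.1 ± 3.82 CPM in WT MPP4-labelled libraries (mean ± SD, n = 3), against 125 ± 19.7 CPM and 9.48 ± 1.51 CPM in KO. Cd34, a sialomucin that HSC of adult mice lack, stood at 52.1 ± 3.91 CPM and 50.3 ± 17.0 CPM in WT against 30.1 ± 11.7 CPM and 92.0 ± 8.78 CPM in KO.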

How the results depend on the processing

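As reported, 3858 genes were called higher and 2677 lower, and 1294 and 626 had a higher or lower change in KO than in WT. Testing only genes of at least 20 CPM, and so fewer genes, gave 1641, 1674 and, for a lower change in KO, 399. Fitting only the groups compared, and so fewer samples, gave 2302 higher and 296 with a lower change in KO. Background subtraction gave 777, 927, 248 and 247. Leaving out 1 KO library as deposited gave 3045 to 3553, 2237 to 2457, 1088 to 1264 and 495 to 589. Leaving out 1 KO library after subtraction, an alternative added after seeing the data, gave 486 to 665, 735 to 836, 182 to 238 and 164 to 226. After subtraction the number higher fell by more than 1.5 times without KO HSC library 1 (498), 2 (501) or 3 (486), and the number with a lower change in KO did so without KO HSC library 2 (164). DESeq2 gave 4678 higher and 2303 lower, with rises at 67.0% of calls against 59.0%, and median-of-ratios scaling 4183 and 2095 (66.6%).

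Of 170 results for named genes, 104 kept direction and call under all alternatives run, and 45 lost the call under background subtraction. The log2 fold change of Ddx6 turned from -0.24 to 0.046 with subtraction, and ranged from -0.32 to 0.20 over the fits that left out a library. That of mt-Rnr1 turned to 0.080, with a range of -0.35 to 0.095. With subtraction and 1 library left out, signs also turned for Chaf1b (range -0.62 to 0.0058) and Zeb2 (-0.42 to 0.0056). The cause was not tested.

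With replicate number as a block, the replicate block fit called 3471 higher, 2625 lower, 1202 and 593. Same-numbered libraries did not deviate together (correlations -0.02, -0.04 and -0.03 over 8269 genes). If the spread within a group is technical, libraries of the same animal need not deviate together, so this check cannot settle whether the numbers mark animals. At 3148370 to 3667509 counts a library, changes of genes with few counts may not be detectable.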

Other observations

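Immunoglobulin V segments, which differ between B cell clones, were summed to 19.4 to 32.4 CPM (heavy chain) and 7.36 to 12.998 CPM (kappa chain) in KO HSC libraries, and to 786 to 887 and 478 to 597 CPM in KO MPP4-labelled ones. These sums use unscaled library totals. The 5 most abundant of each chain were the same in all 3 KO MPP4-labelled libraries, and 1 of 5 in each chain was also among the 5 of the WT MPP4-labelled libraries. Ighv11-2 stood at 388, 429 and 449 CPM in KO MPP4-labelled libraries against a mean of 1.52 CPM in WT ones. Igkv6-15 stood at 163, 168 and 231 CPM against 0.67 CPM. Igkv19-93 went the other way, at 2.51, 2.70 and 1.24 CPM against 128 CPM in WT. Reads that near-identical segments share make single values uncertain.

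Genes of plasma cells, a list added after values were seen, summed to 143 to 181 CPM in KO HSC and 324 to 342 CPM in KO MPP4-labelled libraries, on unscaled totals. Of 12 tested, 6 were called higher as deposited and 1, Jchain, after subtraction.

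Among genes of at least 20 CPM, those spanning at least 200 kb (1039 genes) had a median log2 fold change of 1.19 as deposited, while those under 10 kb had -0.34. After background subtraction the medians were 0.13 and -0.003. Nupr1, a small stress-response protein, fell from 265, 179.7 and 193 CPM in KO HSC to 36.0, 24.3 and 31.2 CPM in MPP4-labelled libraries (log2 fold change -2.80 ± 0.30 SE, adjusted p = 6.64e-10).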
